A study of Mus musculus with 24 samples.

Results

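The genes described here are 10 members of the NF-kB system, out of 55487 Ensembl gene identifiers in the count table. They were chosen by name: the 5 subunits Nfkb1 (ENSMUSG00000028163.17), Nfkb2 (ENSMUSG00000025225.15), Rel (ENSMUSG00000020275.9), Rela (ENSMUSG00000024927.8) and Relb (ENSMUSG00000002983.17), the inhibitors Nfkbia (ENSMUSG00000021025.8) and Nfkbie (ENSMUSG00000023947.8), the nuclear IkB proteins Nfkbiz (ENSMUSG00000035356.17) and Bcl3 (ENSMUSG00000053175.17), and the deubiquitinase Tnfaip3 (ENSMUSG00000019850.11). All 10 passed the filter on low counts and were among the 17139 genes tested.

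RNA was sequenced in bulk from CD11b-positive cells of male mouse offspring aged 8 to 10 weeks, taken with magnetic beads after papain digestion of frontal cortex or striatum. The strain was not given in the sources used here. MIA offspring came from dams with maternal immune activation, for which the labels name no agent, and control offspring formed the other prenatal group. Each group received LPS (lipopolysaccharide, a bacterial cell wall product that activates Toll-like receptor 4) at 4500 EU/g by intraperitoneal injection, or saline, 18 h before collection. The 8 groups were MIA striatum LPS, MIA cortex LPS, control striatum LPS and control cortex LPS, and the 4 matching saline groups. Each held 3 libraries except MIA striatum LPS, which held 2 because the submitters' label marks its replicate 3 as excluded. The question was what LPS did to these genes in each region, and whether that differed between MIA and control offspring. The litter of each animal is not given, so MIA cannot be told apart from litter. Nothing says whether the replicates were separate animals, so p-values measure the spread between these libraries. Whether cortex and striatum libraries came from the same animals is not given either. The fit treated every library as independent. If animals were shared, the SEs and p-values of comparisons averaged over regions may be too small. Those of differences between regions may then be too large.

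NF-kB is a family of dimeric transcription factors that microglia and other innate immune cells use to switch on inflammatory genes. In resting cells IkB proteins such as IkB-alpha, the product of Nfkbia, hold the dimers in the cytoplasm, and signals from Toll-like or cytokine receptors lead to phosphorylation and loss of the IkB. Several members are themselves NF-kB target genes, so that the inhibitors Nfkbia, Nfkbie and Tnfaip3 close negative feedback loops.

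The 23 libraries used held 19453295 to 29480499 counts each. All 15 microglial marker genes were detected in every library. Their summed level ran from 49765 to 70274 CPM (counts scaled to a common library total, with TMM factors) in LPS libraries and from 65452 to 85012 CPM in saline libraries. It lay wholly below saline in MIA striatum (56012 to 63025 CPM after LPS against 71869 to 74765 CPM), MIA cortex (49765 to 62635 against 68554 to 76754 CPM) and control cortex (53620 to 68867 against 79858 to 85012 CPM). In control striatum the treatments overlapped (51528 to 70274 against 65452 to 75725 CPM). The sum over 13 neutrophil markers moved with LPS: it lay wholly above saline in MIA striatum (618 to 902 CPM after LPS against 299 to 369 CPM), control striatum (630.1 to 946 against 303 to 347 CPM) and control cortex (918 to 1097 against 412 to 659 CPM), and overlapped in MIA cortex (578 to 900.2 against 557 to 1039 CPM). The sum over 11 blood monocyte markers ran from 728 to 1482 CPM after LPS and from 650.2 to 1087 CPM after saline, and lay wholly above saline in MIA striatum and control cortex. For 9 border-associated macrophage markers the sum was 883 to 1211 CPM in MIA striatum LPS, wholly above MIA striatum saline (341 to 520 CPM) and control striatum LPS (363 to 569 CPM). Elsewhere LPS and saline overlapped, as did MIA cortex LPS (531 to 1349 CPM) and control cortex LPS (452 to 1041 CPM). Of the neutrophil markers, Ly6g was at 0 in 6 libraries, Mpo in 5 and Elane in 8, and the other 10 were above 0 in every library, with Csf3r at 241 to 465 CPM and S100a8 at 4.03 to 377 CPM. Of 11 lymphocyte markers, the T cell genes Cd3d and Cd3e were at 0 in 20 and 16 libraries. Trac was at 0 in 1 library and at most 0.609 CPM. Nkg7, at 0.213 to 4.37 CPM, and Cd79b, at 11.2 to 36.7 CPM, were above 0 in every library. The lymphocyte sum after LPS lay wholly below saline in all 4 pairs of groups, at 18.4 to 22.0 against 29.6 to 33.3 CPM in MIA striatum. In control striatum the oligodendrocyte marker sum was 514.5 to 1139 CPM after LPS against 1361 to 5604 CPM after saline. The endothelial and pericyte sum there was 812 to 1213 against 1280 to 2664 CPM, and the neuronal sum 36.1 to 48.6 against 81.7 to 188 CPM. In every other pair of groups the treatments overlapped for these sums, and the astrocyte sum overlapped in all pairs. The part of other cells in the results was not tested, and in these bulk samples fewer cells of a type and less RNA per cell cannot be told apart.

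Promoter windows from RefSeq (GRCm38.p6, 250 bases before to 50 after an annotated transcription start) were given for 7 of the 10 members, 10 windows in all. The kappaB consensus, the binding motif of NF-kB dimers, was searched by its usual degenerate form on both strands. It was present in 8 of the 10 windows and in 6 of the 7 members, all but Rela. Of 32851 windows of the same 300-base length 4.51% held it, and of 27025 genes 5.14%. The 8 windows are not independent, since they include windows 1 to 3 of Nfkb2. Of these, chr19:46305445-46305744 and chr19:46305680-46305979 overlap, and the same GGGACTTTCC site is counted in both. These matches describe letters in a window and not binding. For 5 of the 6 members with a match, 1 window each is printed with the matches in capitals, to show how near to the start they lie. The other windows of Nfkb2 also held matches. The other window of Tnfaip3, chr10:19011914-19012213, held 0. The window of Rel, with overlapping matches that begin at -92 and -91, is not printed.
Nfkb2, chr19:46304487-46304786, plus strand: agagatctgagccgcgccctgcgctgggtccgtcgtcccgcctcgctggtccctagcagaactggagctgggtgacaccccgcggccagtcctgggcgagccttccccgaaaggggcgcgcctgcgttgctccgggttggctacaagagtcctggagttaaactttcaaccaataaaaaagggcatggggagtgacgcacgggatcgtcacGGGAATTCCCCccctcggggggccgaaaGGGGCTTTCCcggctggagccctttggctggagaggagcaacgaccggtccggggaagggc
Bcl3, chr7:19822706-19823005, minus strand: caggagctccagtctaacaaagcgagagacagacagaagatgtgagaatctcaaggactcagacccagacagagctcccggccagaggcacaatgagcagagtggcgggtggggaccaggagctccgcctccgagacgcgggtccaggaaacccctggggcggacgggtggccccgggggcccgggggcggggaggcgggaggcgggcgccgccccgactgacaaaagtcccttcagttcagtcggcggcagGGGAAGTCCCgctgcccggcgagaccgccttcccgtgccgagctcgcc
Nfkbia, chr12:55492598-55492897, minus strand: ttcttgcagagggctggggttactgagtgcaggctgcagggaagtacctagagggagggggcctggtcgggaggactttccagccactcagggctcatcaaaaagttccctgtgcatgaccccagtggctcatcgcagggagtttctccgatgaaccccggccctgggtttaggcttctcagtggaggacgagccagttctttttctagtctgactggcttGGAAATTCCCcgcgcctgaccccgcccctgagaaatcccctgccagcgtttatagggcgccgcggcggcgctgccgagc
Nfkbie, chr17:45555450-45555749, plus strand: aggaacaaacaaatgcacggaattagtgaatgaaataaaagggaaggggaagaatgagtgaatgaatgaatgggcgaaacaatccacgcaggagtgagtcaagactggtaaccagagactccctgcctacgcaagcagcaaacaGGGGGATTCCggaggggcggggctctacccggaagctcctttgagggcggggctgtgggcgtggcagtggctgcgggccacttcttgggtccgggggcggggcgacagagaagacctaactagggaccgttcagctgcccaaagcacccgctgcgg
Tnfaip3, chr10:19015361-19015660, minus strand: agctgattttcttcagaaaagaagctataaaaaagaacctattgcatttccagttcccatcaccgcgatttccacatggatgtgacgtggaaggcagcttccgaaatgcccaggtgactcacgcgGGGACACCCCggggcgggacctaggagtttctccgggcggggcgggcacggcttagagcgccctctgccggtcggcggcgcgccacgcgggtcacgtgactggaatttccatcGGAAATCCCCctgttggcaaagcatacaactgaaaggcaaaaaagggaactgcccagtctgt
Counted in bases from the transcription start as 0, the match in Nfkbia begins at position -29, that in Nfkbie at -106 and that in Bcl3 at 2. Overlapping matches in the printed Nfkb2 window begin at -39 and -38, with a separate one at -11. The Tnfaip3 matches begin at -125 and -12.

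Levels of the members spanned more than 3 orders of magnitude per transcript length. In control cortex saline, Nfkbia stood highest at 1280 ± 261 CPM per kb of transcript (SD, n = 3 here and for the other members). Nfkbiz followed at 200.4 ± 25.6 and Tnfaip3 at 193 ± 37.9 CPM per kb, which did not differ beyond their spread. Rela, the transactivating subunit of the classical dimer, stood at 56.3 ± 4.32 CPM per kb and its partner Nfkb1 at 34.6 ± 1.48 CPM per kb. Rel at 19.5 ± 1.42 CPM per kb lay above Nfkbie at 16.2 ± 1.15 CPM per kb. Relb at 8.93 ± 3.30 and Nfkb2 at 6.75 ± 1.90 CPM per kb, the pair that forms the non-canonical dimer, did not differ beyond their spread. Bcl3 was lowest at 0.645 ± 0.256 CPM per kb. In control cortex LPS, Bcl3 stood at 7.06 ± 4.47 CPM per kb and was still the lowest, while Nfkb2 at 19.3 ± 5.92, Nfkb1 at 19.6 ± 3.15, Rel at 19.1 ± 8.13 and Relb at 18.6 ± 9.83 CPM per kb lay within their spread of each other.

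**Figure D1:**
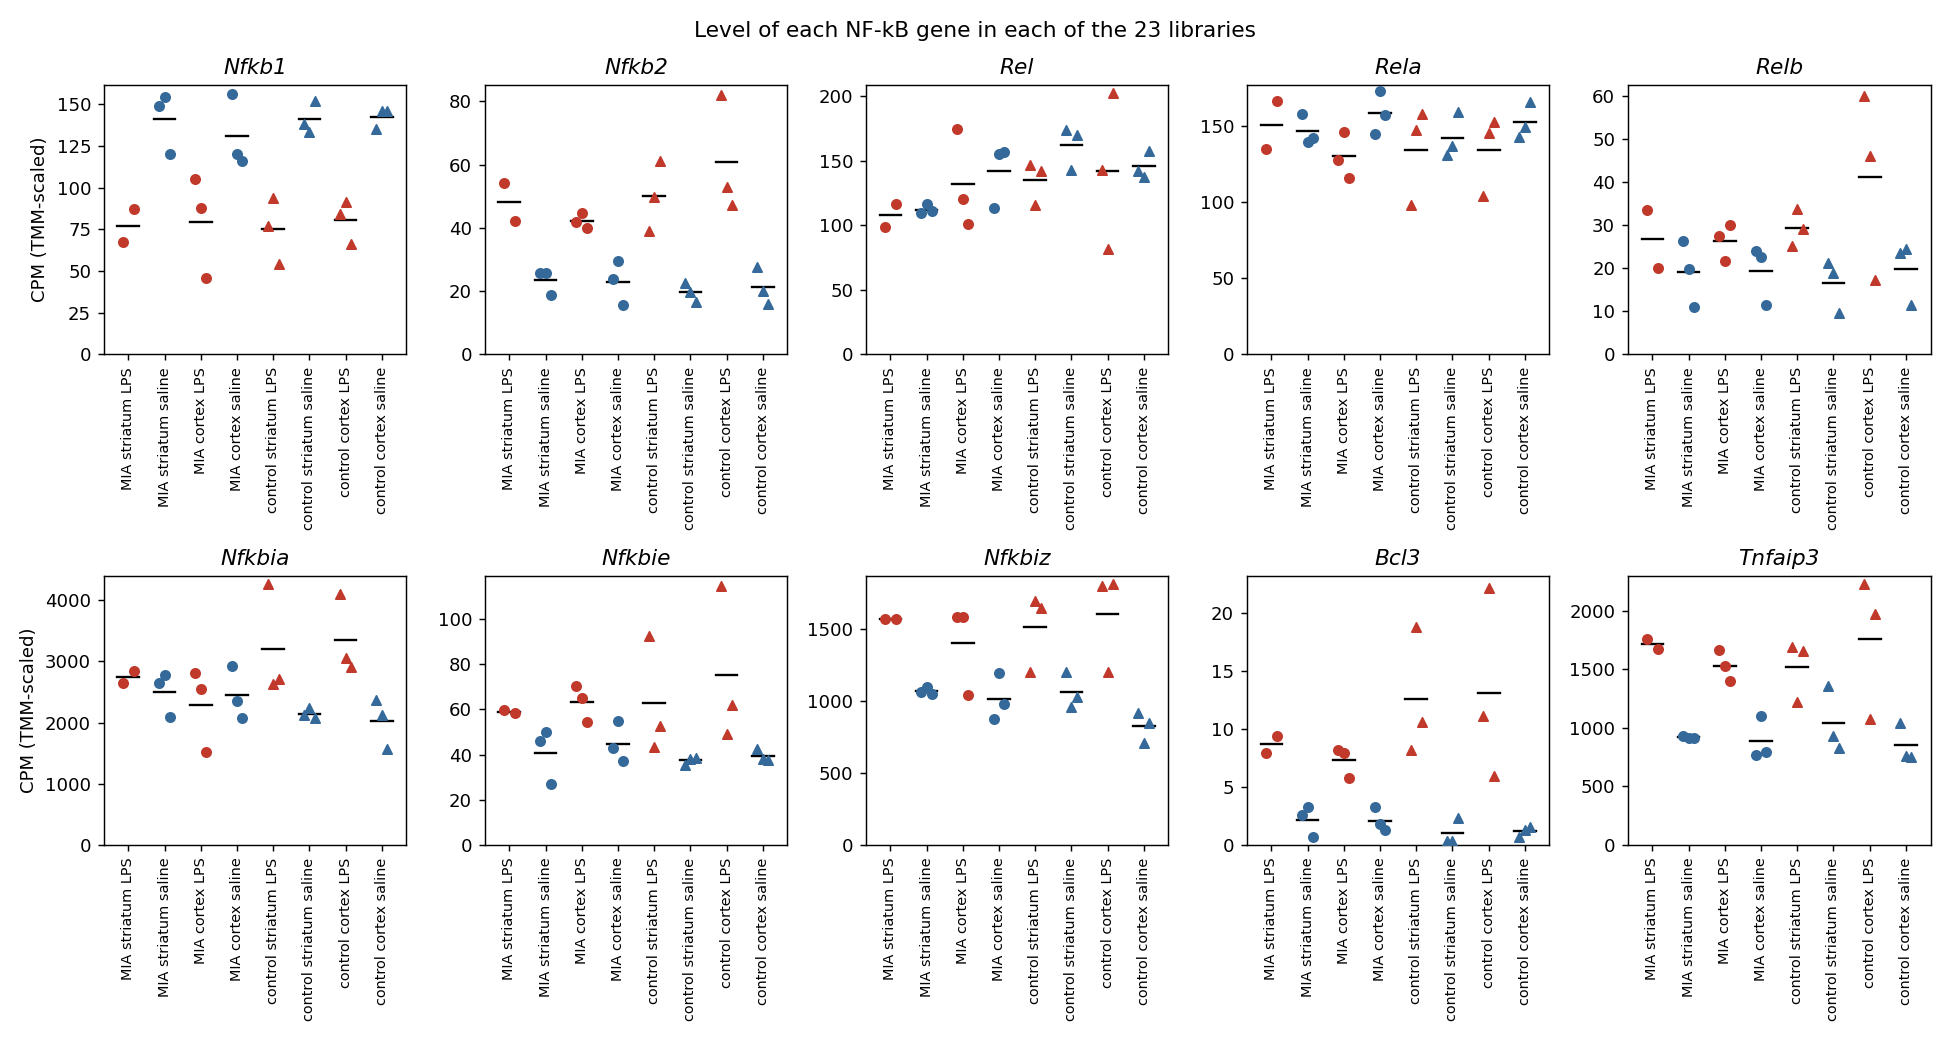
Level of each member in every library, in CPM on linear axes that start at 0, by group. Red marks LPS and blue saline, circles MIA and triangles control, and the short line is the group mean. Nfkb2 and Bcl3 lie higher in each of the 11 LPS libraries than in each of the 12 saline libraries, and Nfkb1 lies lower.

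LPS moved the subunits in opposite directions: Nfkb2 rose in all 4 prenatal and regional groups and Nfkb1 fell in 3 of them. Rel, Rela and Relb passed the test in none of the 4, though Relb passed in both control groups when a term for the replicate number was added. In MIA striatum 2 members rose and 1 fell, where 6.93% of all tested genes rose and 3.31% fell (10.2% in either direction). In MIA cortex 2 rose and 0 fell, where 7.05% of all genes rose and 4.85% fell (11.9%). In control striatum 2 rose and 1 fell, where 12.7% rose and 8.15% fell (20.9%). In control cortex 6 rose and 1 fell, where 10.9% rose and 7.25% fell (18.2%). The median log2 fold change of the 10 members was 0.51, 0.46, 0.56 and 0.95 in MIA striatum, MIA cortex, control striatum and control cortex, beside -0.06, 0.01, -0.02 and 0.04 for all tested genes.

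Nfkb2 encodes p100, which is processed to p52, the DNA-binding partner of Relb. It stood at 54.2 and 42.3 CPM in MIA striatum LPS against 25.6, 25.7 and 18.7 CPM in MIA striatum saline. In the cortex of MIA offspring it stood at 41.9, 44.6 and 40.1 CPM in MIA cortex LPS against 23.7, 29.4 and 15.7 CPM in MIA cortex saline. The LPS and saline libraries of MIA offspring did not overlap in either region. In control offspring Nfkb2 stood at 38.9, 49.6 and 61.3 CPM in control striatum LPS against 22.6, 19.8 and 16.4 CPM in control striatum saline. It stood at 81.9, 52.9 and 47.3 CPM in control cortex LPS against 27.7, 20.0 and 15.9 CPM in control cortex saline. The highest value of all was control cortex LPS replicate 1. The log2 fold change was 1.05 ± 0.28 (adjusted p = 0.0179) in MIA striatum, 0.88 ± 0.25 (adjusted p = 0.0272) in MIA cortex, 1.35 ± 0.26 (adjusted p = 0.0007) in control striatum and 1.52 ± 0.26 (adjusted p = 0.000262) in control cortex (± SE throughout). The MIA striatum call was lost without LPS replicate 1 or 2 or saline replicate 3, and the MIA cortex call without LPS replicate 1 or 2 or saline replicate 1 or 3. Expected counts for Nfkb2 were not whole numbers in any of the 24 deposited libraries. In the GENCODE M21 annotation its exons share 299 bases with Psd and 531 bases with AC114539.1, both on the other strand, and the labels do not state that the library kit kept the strand, so reads of these genes cannot be told apart there. The counts for Psd ran from 23 to 507 and for AC114539.1 from 86 to 231.

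Nfkb1 encodes p105, the precursor of p50, which pairs with the Rela product in the classical dimer. It stood at 67.2 and 86.9 CPM in MIA striatum LPS against 149, 154 and 120.2 CPM in MIA striatum saline. It stood at 105, 87.6 and 45.9 CPM in MIA cortex LPS against 156, 120.2 and 116 CPM in MIA cortex saline. The lowest of all 23 libraries was MIA cortex LPS replicate 3, in which the sum over neuronal markers was 335 CPM, against 30.5 to 188 CPM in the other 22 libraries, and the microglial sum was the lowest. Whether this bears on its values was not tested. In control offspring Nfkb1 stood at 76.7, 93.9 and 54.4 CPM in control striatum LPS against 138, 133 and 152 CPM in control striatum saline. It stood at 83.8, 91.4 and 66.1 CPM in control cortex LPS against 135, 146 and 146 CPM in control cortex saline. The LPS and saline libraries of each pair of groups did not overlap. On the log2 scale the LPS over saline change was -0.87 ± 0.27 (adjusted p = 0.0431) in MIA striatum, -0.72 ± 0.24 (adjusted p = 0.0535) in MIA cortex, -0.91 ± 0.24 (adjusted p = 0.00845) in control striatum and -0.82 ± 0.24 (adjusted p = 0.0182) in control cortex. The call in MIA striatum was lost without MIA striatum LPS replicate 1 or 2, its saline replicate 1 or 2, MIA cortex LPS replicate 2, control striatum saline replicate 1 or 2, control cortex LPS replicate 1 or any control cortex saline library. MIA cortex passed without 5 single libraries: LPS replicate 1, MIA striatum LPS replicate 2, MIA striatum saline replicate 3, and control striatum LPS replicate 2 or 3. The call in control striatum was lost without LPS replicate 3, and that in control cortex without LPS replicate 3 or saline replicate 2 or 3.

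**Figure D2:**
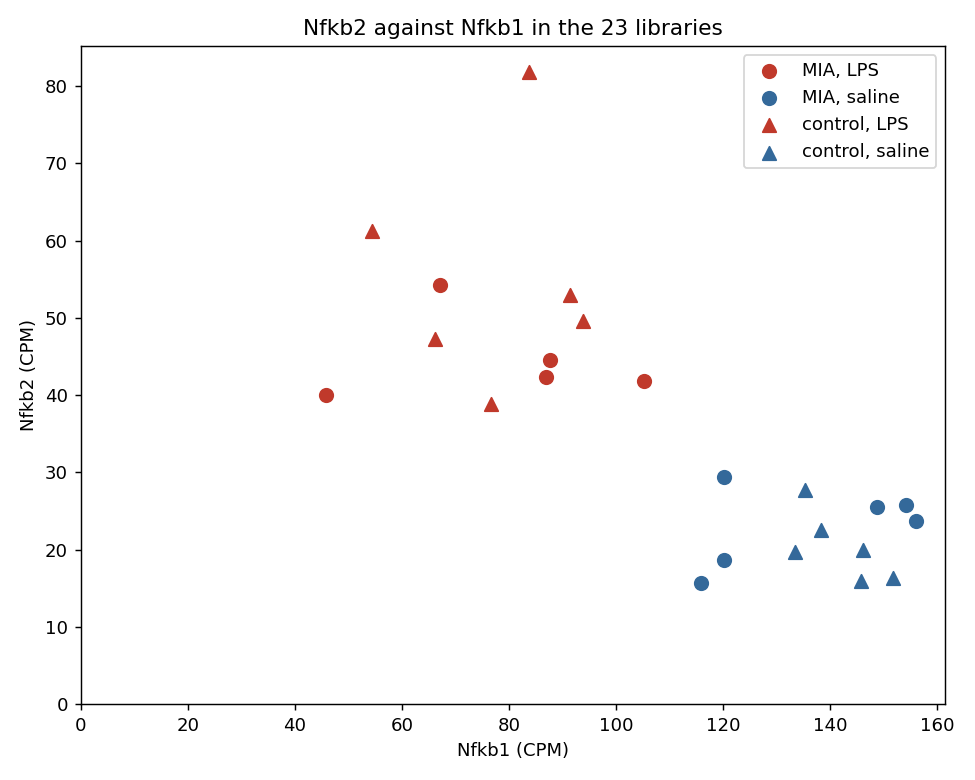
Nfkb2 against Nfkb1 in the 23 libraries, both in CPM on linear axes, with colour for treatment and marker shape for prenatal group. LPS libraries lie at 38.9 to 81.9 CPM of Nfkb2 and 45.9 to 105.3 CPM of Nfkb1, and saline libraries at 15.7 to 29.4 CPM of Nfkb2 and 116 to 156 CPM of Nfkb1, with no overlap on either axis.

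Relb, the transactivating partner of p52, was spread widely. Its 11 LPS libraries ran from 17.3 to 60.0 CPM with a median of 29.0, and its 12 saline libraries from 9.48 to 26.2 CPM with a median of 20.4. In control striatum it stood at 25.1, 33.7 and 29.0 CPM after LPS, wholly above saline at 21.1, 18.9 and 9.48 CPM. In every other pair of groups its LPS and saline libraries overlapped. In control cortex LPS Relb stood at 60.0, 45.9 and 17.3 CPM, with replicate 3 below 2 of the 3 saline libraries at 23.5, 24.3 and 11.3 CPM. The log2 fold change there was 1.06 ± 0.42 (adjusted p = 0.0918), and 1.42 (adjusted p = 0.0163) without LPS replicate 3. Rel, a transactivating subunit prominent in lymphoid and myeloid cells, ran from 81.2 to 203 CPM with a median of 120.3 after LPS and from 109 to 174 CPM with a median of 142 after saline. Its log2 fold changes lay between -0.27 and -0.04. Rela ran from 98.5 to 167 CPM with a median of 146 after LPS and from 131 to 174 CPM with a median of 147 after saline. Averaged over the 4 groups, a comparison added after the data were seen, the 95% interval was -0.37 to 0.14 for Rel and -0.31 to 0.06 for Rela.

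The inhibitors Nfkbia and Nfkbie rose in control cortex. In both MIA groups and in control striatum neither passed the test. Nfkbia stood at 2641 and 2849 CPM in MIA striatum LPS against 2655, 2777 and 2086 CPM in MIA striatum saline. It stood at 2810.2, 2549.8 and 1525 CPM in MIA cortex LPS against 2934, 2360.4 and 2076 CPM in MIA cortex saline. In MIA offspring the treatments overlapped in both regions. In control offspring Nfkbia stood at 4265, 2634 and 2705 CPM in control striatum LPS against 2125, 2235 and 2075 CPM in control striatum saline. It stood at 4101, 3053 and 2914 CPM in control cortex LPS against 2364, 2130.3 and 1564 CPM in control cortex saline. Control LPS replicate 1 was the highest library of its region in both regions, and the LPS and saline groups of control offspring did not overlap in either. As log2 fold changes these were 0.13 ± 0.25 (adjusted p = 0.83) in MIA striatum, -0.10 ± 0.23 (adjusted p = 0.873) in MIA cortex, 0.58 ± 0.23 (adjusted p = 0.0807) in control striatum and 0.73 ± 0.23 (adjusted p = 0.0296) in control cortex. The control cortex call was lost without LPS replicate 1, where it was 0.56, or without saline replicate 2 or 3. Control striatum passed without MIA cortex LPS replicate 3.

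Nfkbie encodes IkB-epsilon, an inducible inhibitor. In control cortex it stood at 115, 49.2 and 62.0 CPM in control cortex LPS against 42.7, 38.0 and 37.7 CPM in control cortex saline. LPS replicate 1 was again the highest. LPS over saline gave log2 fold changes of 0.53 ± 0.32 (adjusted p = 0.372) in MIA striatum, 0.49 ± 0.29 (adjusted p = 0.332) in MIA cortex, 0.75 ± 0.29 (adjusted p = 0.0735) in control striatum and 0.93 ± 0.29 (adjusted p = 0.029) in control cortex. Without control cortex LPS replicate 1 the control cortex value was 0.49 and the call was lost, as it was without any 1 of the 3 saline libraries. Control striatum passed without its LPS replicate 2 or without control cortex LPS replicate 1.

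Tnfaip3 encodes A20, a ubiquitin-editing enzyme that limits NF-kB signalling. It rose in 3 of the 4 groups. Tnfaip3 stood at 1762 and 1672 CPM in MIA striatum LPS against 932, 914 and 918 CPM in MIA striatum saline. It stood at 1665, 1532 and 1399 CPM in MIA cortex LPS against 769, 1098 and 795 CPM in MIA cortex saline. No LPS library of the MIA groups lay within the saline range. In control offspring it stood at 1691, 1218 and 1656 CPM in control striatum LPS against 1360.0, 928 and 832 CPM in control striatum saline. It stood at 2225, 1075 and 1975 CPM in control cortex LPS against 1044, 758 and 751 CPM in control cortex saline. The treatments overlapped in control striatum, where saline replicate 1 lay above LPS replicate 2, and did not overlap in control cortex. In log2 terms the change was 0.90 ± 0.25 (adjusted p = 0.0258) in MIA striatum, 0.79 ± 0.23 (adjusted p = 0.0297) in MIA cortex, 0.55 ± 0.23 (adjusted p = 0.102) in control striatum and 1.05 ± 0.23 (adjusted p = 0.00292) in control cortex. The MIA striatum call was lost without any 1 of its 5 libraries, and the MIA cortex call without LPS replicate 1 or 2 or saline replicate 1 or 3. Control striatum passed without its saline replicate 1 or without control cortex LPS replicate 2. All 3 calls were lost when the excluded MIA striatum LPS replicate 3 was added, in which Tnfaip3 was at 290.0 CPM.

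The nuclear IkB proteins act on gene expression in the nucleus with p50 or p52 dimers. Bcl3 rose in both control groups, with the largest fold changes of the 10 members. In MIA offspring Bcl3 stood at 7.93 and 9.40 CPM in MIA striatum LPS against 2.57, 3.29 and 0.711 CPM in MIA striatum saline, and at 8.22, 7.91 and 5.77 CPM in MIA cortex LPS against 3.24, 1.81 and 1.27 CPM in MIA cortex saline. In control offspring it stood at 8.18, 18.8 and 10.6 CPM in control striatum LPS against 0.387, 0.383 and 2.35 CPM in control striatum saline, and at 11.1, 22.1 and 5.92 CPM in control cortex LPS against 0.669, 1.32 and 1.59 CPM in control cortex saline. The saline values rest on low counts, 8 to 70 per library in control striatum and 16 to 34 in control cortex. The treatments did not overlap in any of the 4 pairs of groups. The log2 fold change was 1.99 ± 0.69 (adjusted p = 0.0743) in MIA striatum, 1.79 ± 0.64 (adjusted p = 0.0768) in MIA cortex, 3.55 ± 0.69 (adjusted p = 0.000793) in control striatum and 3.45 ± 0.69 (adjusted p = 0.00109) in control cortex. DESeq2 called both MIA groups as well, and both passed in edgeR without control striatum saline replicate 3.

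Nfkbiz encodes IkB-zeta, which is needed for a subset of secondary response genes. In control cortex it stood at 1796, 1199 and 1812 CPM in control cortex LPS against 916, 709.6 and 848 CPM in control cortex saline. All 3 LPS libraries lay above the saline range. On the log2 scale the LPS over saline change was 0.55 ± 0.21 (adjusted p = 0.11) in MIA striatum, 0.47 ± 0.19 (adjusted p = 0.128) in MIA cortex, 0.51 ± 0.19 (adjusted p = 0.0613) in control striatum and 0.96 ± 0.19 (adjusted p = 0.00105) in control cortex. MIA cortex passed without its LPS replicate 3. Control striatum passed without its LPS replicate 1, MIA cortex LPS replicate 3 or control cortex LPS replicate 2.

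Averaged over the 4 groups, 7 members rose and Nfkb1 fell, in a comparison where 20.7% of all tested genes rose and 16.9% fell (37.6% in all). The mean log2 fold change was 2.70 ± 0.34 (adjusted p = 1.59e-06) for Bcl3, 1.20 ± 0.13 (adjusted p = 2.85e-07) for Nfkb2, 0.82 ± 0.12 (adjusted p = 1.08e-05) for Tnfaip3 and 0.71 ± 0.21 (adjusted p = 0.0124) for Relb. It was 0.68 ± 0.15 (adjusted p = 0.00098) for Nfkbie, 0.62 ± 0.10 (adjusted p = 2.72e-05) for Nfkbiz, 0.34 ± 0.12 (adjusted p = 0.0282) for Nfkbia and -0.83 ± 0.12 (adjusted p = 1.37e-05) for Nfkb1. The Relb call was lost without MIA striatum LPS replicate 1, and the Nfkbia call without any 1 of 7 libraries (control cortex LPS replicate 1 or saline replicate 3, control striatum LPS replicate 1, MIA cortex LPS replicate 1 or 2, MIA striatum LPS replicate 2 or saline replicate 3). Over the 11 LPS and 12 saline libraries, Nfkb2 and Bcl3 did not overlap and lay above, as 5.78% of tested genes did. Nfkb1 lay below without overlap, as 3.05% did.

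**Figure D3:**
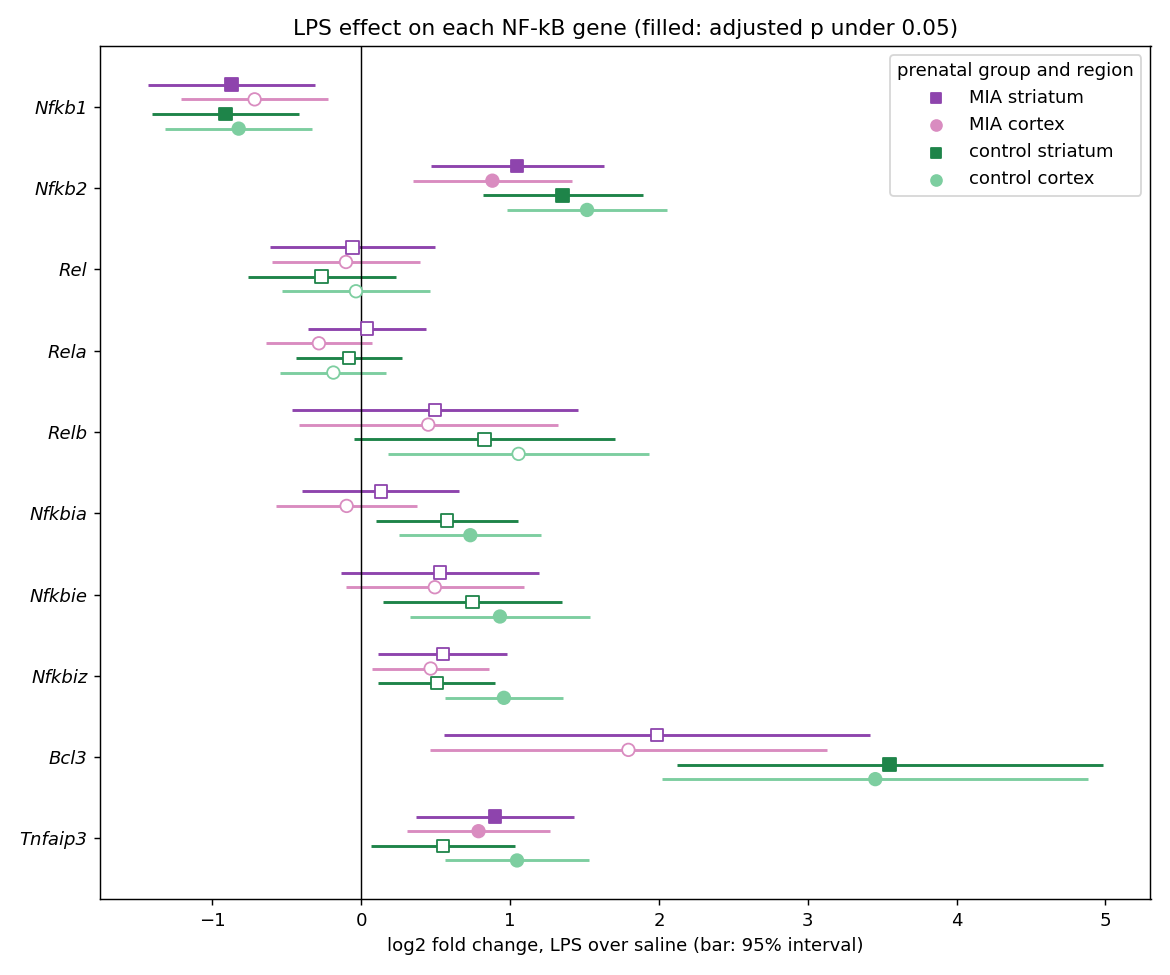
Log2 fold change of LPS over saline for each member in MIA striatum, MIA cortex, control striatum and control cortex, with bars for the 95% interval and filled markers at an adjusted p under 0.05. The estimates of Nfkb2, Relb, Nfkbie, Nfkbiz, Bcl3 and Tnfaip3 lie above 0 in all 4 groups. Those of Nfkb1 and Rel lie below 0 in all 4, and the intervals of Rel and Rela include 0 in all 4.

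No member differed between MIA and control offspring past the threshold. In edgeR and in DESeq2, 0 of 10 were called in either region after saline or after LPS. The share of all tested genes called was 0.146% in striatum after LPS, and 0% in cortex after LPS and in both regions after saline. At an unadjusted p under 0.05 there were 0 members in striatum LPS, 1 in cortex LPS, 1 in striatum saline and 0 in cortex saline, beside 9.08%, 4.88%, 4.91% and 5.37% of all tested genes at the same threshold. The one in cortex LPS was Nfkbia, at 2810.2, 2549.8 and 1525 CPM in MIA against 4101, 3053 and 2914 CPM in control. Every MIA library there lay below every control library, and the log2 difference was -0.55 ± 0.23 (adjusted p = 0.938), with a 95% interval of -1.02 to -0.07. It was -0.31 without MIA cortex LPS replicate 3. The one in striatum saline was Rel, at 109, 116 and 111 CPM in MIA against 174, 143 and 169.8 CPM in control, a log2 difference of -0.53 ± 0.24 (adjusted p = 0.918).

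Averaged over both regions after LPS, 0 of 10 members were called by either tool, beside 1.09% of all tested genes, and 1 had an unadjusted p under 0.05, as did 12% of all tested genes. That member was Nfkbia, with a log2 difference of -0.39 ± 0.17 (adjusted p = 0.379). The 95% intervals were -0.36 to 0.38 for Nfkb1, -0.68 to 0.11 for Nfkb2, -0.21 to 0.33 for Rela, -0.37 to 0.35 for Tnfaip3 and -1.65 to 0.28 for Bcl3. Averaged over both regions after saline, 0 were called by either tool, beside 0% of all genes, and 0 had an unadjusted p under 0.05, as did 6.55% of all genes. The widest interval was that of Bcl3, -0.04 to 1.89. In cortex after LPS, all 10 estimates were below 0, as were 51.3% of all tested genes, and in striatum after LPS 6 of 10 were, as were 51.8% of all tested genes.

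The difference between the MIA and control responses to LPS was tested as an interaction. Averaged over both regions, 0 of 10 members were called by edgeR or DESeq2, beside 0.0175% of all genes, and 2 had an unadjusted p under 0.05 beside 9.32% of all genes. These were Nfkbia, with an interaction of -0.64 ± 0.24 (adjusted p = 0.385), and Bcl3, with -1.61 ± 0.65 (adjusted p = 0.435). A negative value means a smaller LPS over saline difference in MIA. Without control striatum saline replicate 3, Bcl3 was at -2.32 (adjusted p = 0.161). The intervals were -1.02 to 0.08 for Nfkb2, -0.45 to 0.54 for Tnfaip3 and -0.43 to 0.58 for Nfkb1. Within striatum 0 members were called and 0 had an unadjusted p under 0.05, beside 7.72% of all genes at that threshold. Within cortex 0 were called and 1 had one, beside 4.34% of all genes, Nfkbia at -0.83 ± 0.32 (adjusted p = 1). In both regions 0% of all genes were called. DESeq2 called 0 members in either region.

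**Figure D4:**
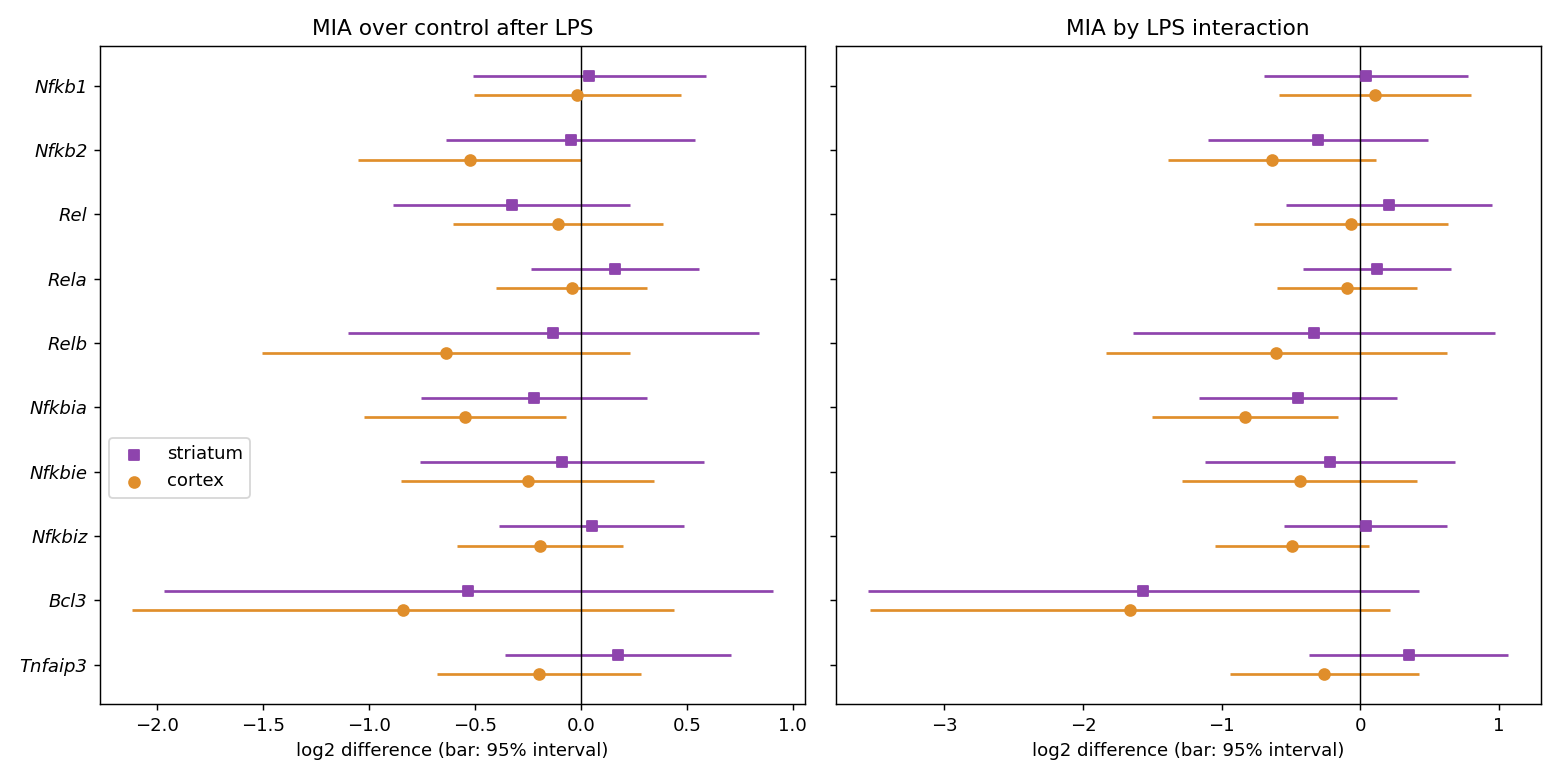
Log2 difference of MIA over control after LPS (left) and the MIA by LPS interaction (right) for each member in striatum and cortex, with bars for the 95% interval. No member passed the threshold, and the Nfkbia interval in cortex lies below 0 in both panels before adjustment.

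No difference between striatum and cortex passed the test, which treated the libraries of the regions as independent. Striatum minus cortex gave 0 called members in MIA LPS, MIA saline, control LPS and control saline by edgeR and DESeq2. Of all tested genes, 0.0117%, 0.0817%, 0.0175% and 0.502% were called there. At an unadjusted p under 0.05 there were 0 members in each, beside 3.7%, 4.57%, 4.7% and 11.8% of all tested genes. Log2 differences ran from -0.49 to 0.36 over the 10 members and the 4 comparisons. The LPS response did not pass a test of difference between regions in either prenatal group for any member. Either tool called 0 members, where 0% of all genes were called. At an unadjusted p under 0.05 there were 0 members, beside 2.79% of all tested genes in MIA and 5.52% in control. For Tnfaip3 in control offspring the difference was -0.50 ± 0.33 (adjusted p = 1), with a 95% interval of -1.18 to 0.18.

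A list of other NF-kB pathway genes and a list of NF-kB response genes each held 39 tested genes. Of the pathway genes, 3 rose and 0 fell in MIA striatum, 5 rose and 1 fell in MIA cortex, 8 rose and 2 fell in control striatum, and 8 rose and 3 fell in control cortex. Of all tested genes, 6.93% rose and 3.31% fell in MIA striatum, 7.05% and 4.85% in MIA cortex, 12.7% and 8.15% in control striatum, and 10.9% and 7.25% in control cortex. The count of pathway genes that rose in MIA striatum was near that share. Their median log2 fold change was 0.07, 0.02, 0.22 and 0.01 in the same order. Map3k8, a kinase acting downstream of Toll-like receptors, rose in all 4 groups and averaged 155 ± 14.8 CPM (SD, n = 2) in MIA striatum LPS against 76.7 ± 6.16 CPM (n = 3) in MIA striatum saline. Tnip2, which binds A20 and p105, also rose in all 4, by 0.60 to 0.77 on the log2 scale. Ikbke, an IkB kinase family member, averaged 4.66, 6.71, 8.30 and 13.8 CPM in MIA striatum, MIA cortex, control striatum and control cortex after LPS, and was at most 0.604 CPM in any saline library. Nfkbib, which encodes IkB-beta, was at 0.76 ± 0.31 (adjusted p = 0.143) on the log2 scale in MIA striatum and 0.58 ± 0.28 (adjusted p = 0.225) in MIA cortex, and rose in control striatum (1.16 ± 0.29, adjusted p = 0.00583) and control cortex (1.12 ± 0.29, adjusted p = 0.00799).

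A pair of pathway genes differed between MIA and control after LPS, averaged over both regions, 1 lower and 1 higher of 39, where 0.823% of all tested genes were lower and 0.263% higher. Peli1, a ubiquitin ligase of Toll-like receptor signalling, was lower in MIA by 0.81 ± 0.14 on the log2 scale (adjusted p = 0.00492). It averaged 150.0 ± 7.99 CPM (n = 2) in MIA striatum LPS against 301 ± 69.9 CPM (n = 3) in control striatum LPS, and 178 ± 21.5 CPM in MIA cortex LPS against 273 ± 28.1 CPM in control cortex LPS. Map3k14, the NF-kB inducing kinase of the non-canonical branch that leads to p52, was higher in MIA by 0.85 ± 0.16 (adjusted p = 0.00755). It averaged 18.6 ± 0.56 CPM in MIA striatum LPS against 8.13 ± 2.00 CPM in control striatum LPS, and 15.02 ± 1.37 CPM in MIA cortex LPS against 10.5 ± 1.00 CPM in control cortex LPS. No pathway gene was called in the interaction.

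Of the response genes, 24, 22, 27 and 29 of 39 rose in MIA striatum, MIA cortex, control striatum and control cortex, and 1, Junb, fell in MIA cortex. Of all tested genes, 6.93%, 7.05%, 12.7% and 10.9% rose in the same order, and 4.85% fell in MIA cortex. Il1b, the inflammatory cytokine, rose by 3.12 ± 0.25, 3.31 ± 0.24, 2.91 ± 0.24 and 3.32 ± 0.24 on the log2 scale in the same order. After LPS, 5 of 39 were lower in MIA averaged over both regions: Slfn2, Ccl2, Cxcl16, Cxcl10 and Tlr2, by 0.57 to 1.35, where 0.823% of all tested genes were lower. No response gene was called in the MIA by LPS interaction, in either region or averaged over both. After saline, where 0% of all genes were called, Tlr2 was at -0.36 ± 0.11 (unadjusted p = 0.00422, adjusted p = 0.64) and Slfn2 at -0.38 ± 0.12 (unadjusted p = 0.0065, adjusted p = 0.692) in MIA over control, averaged over both regions. In striatum alone Tlr2 was at -0.53 ± 0.18 after LPS (adjusted p = 0.337) and -0.53 ± 0.16 after saline (adjusted p = 0.918). In cortex after saline, MIA over control was -0.18 ± 0.16 for Tlr2 and -0.27 ± 0.18 for Slfn2. It was 0.13 ± 0.27 for Ccl2, 0.03 ± 0.21 for Cxcl16 and -0.12 ± 0.36 for Cxcl10 there, and none of the 5 was called. The lists were chosen with earlier results of these data known, and their counts are a description.

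**Figure D5:**
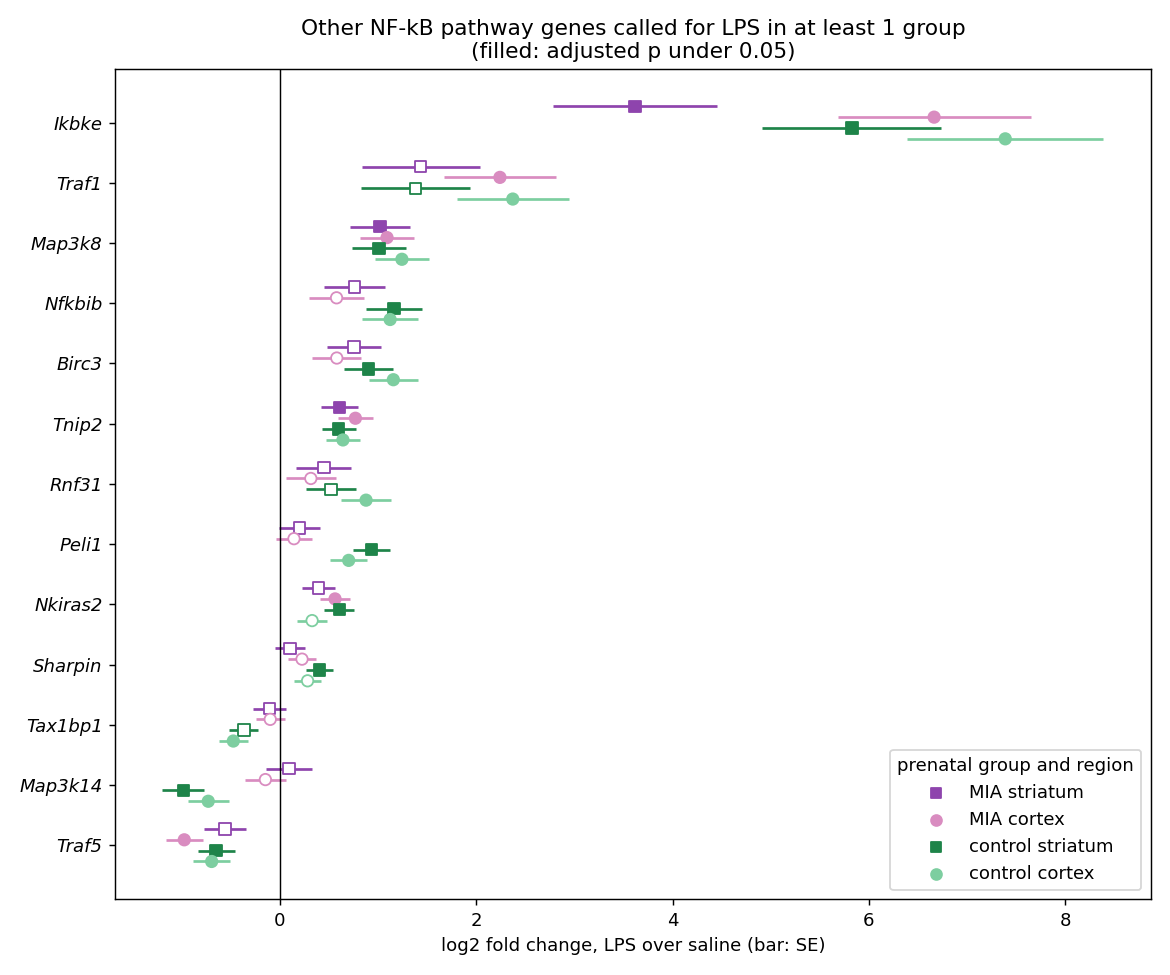
Log2 fold change of LPS over saline for other NF-kB pathway genes in the 4 prenatal and regional groups, for the pathway genes called in at least 1 group, with bars for the SE and filled markers at an adjusted p under 0.05. Map3k8, Tnip2 and Ikbke lie above 0 in all 4 groups.

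The genes whose levels were most like each member over the 23 libraries were picked among 8270 genes averaging 10 CPM or more, by Pearson's r of log2 CPM. LPS and saline libraries form separate sets for several members, so these coefficients follow treatment as well as variation within it, and they are a description. The most alike was Csnk1e for Nfkb1 (r = 0.937), Treml2 for Nfkb2 (0.948), Krtcap2 for Bcl3 (0.936), Arid5a for Tnfaip3 (0.942) and Trib1 for Nfkbiz (0.913). For Nfkbie it was Rab20 (0.970), with Nfkbib also near at 0.935. For Relb the first and second were the heat shock genes Hspa1b (0.866) and Hspa1a (0.860). For Nfkbia it was Id2 (0.860), for Rel Fam45a (0.848) and for Rela Creb3l2 (0.825).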

How the data were processed

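Bulk RNA-seq libraries of CD11b-sorted cells were grouped by the labels into 8 groups. The authors deposited expected counts of genes in 24 libraries, and per the submitters' processing notes STAR, RSEM and DESeq2 were used, and versions and the genome build are not given in the sources used here. Expected counts were rounded. MIA striatum LPS replicate 3, marked excluded in its label, was left out and added back as an alternative.

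With edgeR 4.0.16 (R 4.3.3), filterByExpr (minimum count 10, minimum total 15) left 17139 genes. Counts were scaled with TMM and fitted with 1 term per group (15 residual degrees of freedom). Of the identifiers, 55141 matched a symbol. Quasi-likelihood tests, two-sided, were adjusted by Benjamini-Hochberg over all tested genes within each of 19 comparisons plus 1 added later, and called at an adjusted p under 0.05. The SE is the log2 fold change divided by the square root of F. The code was tested on simulated data. Levels are CPM, counts scaled to a common total, and the count totals limit precision to counting error plus replicate spread.

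The 10 members are named in every comparison. For each, the most alike of 8270 genes and, from each list, up to 6 called genes with the smallest adjusted p were eligible to be named. Junb was named outside this rule, after its value was seen. The members and lists were chosen with earlier results of these data known. Alternatives were DESeq2 1.42.0, median-ratio scaling, no filter and a stricter filter on low counts, only the groups compared, a replicate block and leaving out each library. Transcript lengths and exon overlaps came from GENCODE M21, promoter windows from RefSeq.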

Additional observations from a re-analysis of the deposited data

Results flagged for a closer look

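MIA striatum LPS replicate 3, the library marked excluded and used in no comparison, held a signal for a pair of members above all saline libraries when the 24 libraries were scaled together. Relb stood at 32.86 CPM there, against at most 25.9 CPM in the 12 saline libraries. Bcl3 stood at 6.25 CPM, against at most 3.29 CPM. In the same library Nfkb1 was at 51.5 CPM, below the saline minimum of 118 CPM. Nfkb2, at 29.0 CPM, lay within the saline range. Tnfaip3 at 290.0 CPM, Nfkbiz at 567 CPM and Rel at 41.3 CPM lay below all of the other 23 libraries.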

How the results depend on the processing

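No estimate changed sign while called. Of the values for single members under the alternatives, 5897 kept their side of the threshold, 51 lost a call and 32 gained one. In MIA cortex the number of members called for LPS was 2 as fitted, 4 with no filter on low counts, 4 with DESeq2 and 1 with MIA striatum LPS replicate 3 added. Leaving out 1 library at a time gave 0 to 4 members in MIA striatum, 0 to 3 in MIA cortex, 2 to 5 in control striatum, 4 to 7 in control cortex and 7 to 8 for the mean of the 4 groups; where MIA striatum LPS kept 1 library, it was assumed to vary like the other groups. The count for each MIA, interaction and region comparison was 0 under every alternative run. The mean LPS effect, which uses all 8 groups, was not run with only the groups compared.

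Same-numbered libraries deviated alike in part, and the main fit held no term for the number. Their deviations from the group means correlated with a median r of 0.0761 over 77 pairs (-0.200 to 0.315). Over 154 other pairs the median was -0.0385 (-0.313 to 0.313), and 21 of 23 libraries were nearer to their own number. With the replicate block, 5 members were called in control striatum against 3 without it: it added Relb (0.95, adjusted p = 0.0315) and Nfkbia (0.55, adjusted p = 0.0167). It also added Relb in control cortex (1.00, adjusted p = 0.0262) and Nfkb1 in MIA cortex (-0.75, adjusted p = 0.0164), and changed no other LPS call in a single group.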

Other observations

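Nfkb2, Relb and Nfkbia were each lowest in the library numbered 3 in all 4 saline groups, a pattern noticed in the values. Of all 17139 tested genes, 7.94% had it. Relb stood at 11.0, 11.5, 9.48 and 11.3 CPM in the number 3 libraries of MIA striatum, MIA cortex, control striatum and control cortex saline, while the other 8 saline libraries ran from 18.9 to 26.2 CPM. The labels do not say what the number stands for.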
